A study of Mus musculus with 3 samples.

Results

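The 5 protein-coding genes Lst1, Ltb, Tnf, Lta and Nfkbil1 lie side by side on mouse chromosome 17 (mm9), and they are described here together with the 4 spaces between them. They were chosen by name, as Tnf and its neighbours in the lymphotoxin cluster, out of 22350 protein-coding genes on chromosomes 1 to 19 and X. Phosphorylated Ser5 Pol_II was mapped by ChIP-Seq in macrophages grown from the bone marrow of female Fvb mice (Fvb/Hsd in the study's methods), either left untreated or treated with LPS at 10 ng/ml for 2 h. LPS, lipopolysaccharide, is the endotoxin of Gram-negative bacteria and a strong activator of macrophages. The series holds 3 libraries, namely Ser5 from untreated cells, Ser5 from LPS-treated cells and input DNA (chromatin that went into sequencing without an antibody step) of untreated cells, so there is 1 library for each, no replicate, no test and no input of LPS-treated cells.

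RNA polymerase II carries on its largest subunit a tail of repeated heptapeptides, and TFIIH phosphorylates Ser5 of these repeats as the enzyme starts a transcript, so Ser5 ChIP marks engaged Pol_II, usually densest near the transcription start site (TSS). Tnf encodes tumor necrosis factor, the inflammatory cytokine that macrophages release after endotoxin. Lta and Ltb encode the lymphotoxins, relatives of TNF made mainly by lymphocytes and needed for the formation of lymphoid organs. Lst1 encodes a small leukocyte-specific transmembrane protein, and Nfkbil1 a nuclear protein with ankyrin repeats that resembles the inhibitors of NF-kB.

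Tags (aligned reads) were counted by their 5′ ends and expressed as TPM per kb, where TPM is the tag count scaled to 1000000 tags in the library and kb the length of the region. On chromosomes 1 to 19 and X there were 7616771 tags in the untreated Ser5 library, 6249819 in the LPS library and 7533308 in the input library, with tags of 45, 30 and 36 bases respectively. All intervals in parentheses are 95% intervals, exact Poisson for densities and exact conditional on the sum for ratios, and they cover counting error only. A region is called higher or lower after LPS where its densities differ at least 2 times and its Ser5 tags add up to at least 10 in the 2 conditions. The macrophage identity of the cultures was checked on 7 marker genes, and all 7 had a Ser5 density at least 2 times that of input in untreated cells, as did 6 of 7 after LPS, Itgam being the exception at 0.613 times input.

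The locus spans 50698 bp, chr17:35322040-35372737. From low to high coordinates it holds Lst1 (minus strand, chr17:35322040-35325384), Ltb (plus strand, chr17:35331384-35333265), Tnf (minus strand, chr17:35336326-35338952), Lta (minus strand, chr17:35340110-35342296) and Nfkbil1 (minus strand, chr17:35357120-35372737). Tnf and Ltb are transcribed toward each other, and the space of 3060 bp between them, which is named Ltb-Tnf here after its flanking genes, is reached from the 3′ ends of both. Lta lies directly upstream of Tnf on the same strand, so that the 1157 bp space Tnf-Lta holds the Tnf promoter and follows the Lta 3′ end. The other spaces are Lst1-Ltb, of 5999 bp, and Lta-Nfkbil1, of 14823 bp. The annotation places no gene in any of the 4 spaces. Nfkbil1 overlaps 2 genes on the plus strand, Gm16181, which lies inside it, and Atp6v1g2, which shares its 5′ part, and since ChIP tags do not tell the strand of transcription, tags of such stretches cannot be given to either gene.

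The promoters of the 3 cytokine genes are shown, since most of what follows turns on how differently these genes were occupied. Each sequence is the mm9 reference (the C57BL/6J genome, not that of the mice used) from 250 bp upstream of the annotated TSS up to the base before it, 5′ to 3′ on the strand of the gene. Capitals mark matches on either strand to 5 motifs: the 10-base NF-kB consensus, the AP-1 motif TGANTCA, the ETS core AGGAAG to which PU.1 family members bind, the CRE motif TGACGTCA and the TATA box TATAAA.
Tnf promoter, chr17:35338953-35339202, minus strand: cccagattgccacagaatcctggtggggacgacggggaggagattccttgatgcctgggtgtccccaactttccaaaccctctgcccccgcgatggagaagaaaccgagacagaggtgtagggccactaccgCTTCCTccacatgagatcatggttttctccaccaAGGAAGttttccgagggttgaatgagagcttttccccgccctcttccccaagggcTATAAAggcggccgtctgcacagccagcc
Lta promoter, chr17:35342297-35342546, minus strand: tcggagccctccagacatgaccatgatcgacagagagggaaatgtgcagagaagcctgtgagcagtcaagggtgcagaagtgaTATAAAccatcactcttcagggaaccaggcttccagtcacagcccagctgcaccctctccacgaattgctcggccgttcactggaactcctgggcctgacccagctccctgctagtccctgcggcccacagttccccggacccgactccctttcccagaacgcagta
Ltb promoter, chr17:35331134-35331383, plus strand: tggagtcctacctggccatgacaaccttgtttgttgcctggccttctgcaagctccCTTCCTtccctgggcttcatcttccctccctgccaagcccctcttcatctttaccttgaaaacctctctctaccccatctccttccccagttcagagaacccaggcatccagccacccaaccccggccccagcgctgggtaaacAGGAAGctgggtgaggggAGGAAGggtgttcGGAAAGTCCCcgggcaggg
The Tnf promoter holds a TATA box that starts 29 bp upstream of the TSS and 2 ETS cores, at 84 and 118 bp. The Ltb promoter holds an NF-kB match 19 bp upstream of the TSS and 3 ETS cores, while in that of Lta the only match is a TATA box at 167 bp. Over the promoters of 22345 protein-coding genes cut in the same way, 29.03% held the ETS core, 12.3% the TATA box, 7.69% the NF-kB consensus, 6.01% the AP-1 motif and 1.92% the CRE motif. The promoters of Lst1 and Nfkbil1 held none of the 5. A match is a stretch of letters and was not linked to the binding of any factor.

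Tnf had the highest gene-body Ser5 density of all protein-coding genes tested after LPS. Within 1 kb of the TSS it ranked 2 of 12535 genes by density after LPS and 121 by ratio. Its body held 1640 tags in untreated cells, 12945 after LPS and 44 in input, which is 82.0 TPM per kb (78.0 to 86.0), 788 TPM per kb (775 to 802) and 2.22 TPM per kb (1.62 to 2.98). Among the 17386 genes with enough tags, this density ranked 27 in untreated cells and 1 after LPS. The density after LPS was 9.62 times that in untreated cells (9.14 to 10.1), and only 0.270% of these genes had a higher ratio. Tnf was thus already loaded with Ser5 Pol_II before stimulation, at 36.9 times input (27.3 to 50.9), and stood at 355 times input after LPS (264 to 488). The input density of Tnf was itself among the higher ones, at rank 31. In a bulk ChIP, more cells with an occupied gene and more Pol_II per cell cannot be told apart.

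A count of 1 tag per position came near its limit at Tnf after LPS. In the LPS library the 12945 tags of the body fell on 4173 distinct positions, counting each strand apart, which is 79.4% of the 5254 positions that the gene offers, against 1007 positions, or 19.2%, in untreated cells. The mean was 3.10 tags per position after LPS and 1.63 in untreated cells. With 1 tag kept per position and strand, LPS exceeded untreated 5.25 times (4.90 to 5.63) instead of 9.62. A position that is already taken then adds nothing. How far this or the removal of PCR duplicates made the difference was not tested. Of the 30-base sequences that start in Tnf, 0.228% occur again in the genome.

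**Figure D1:**
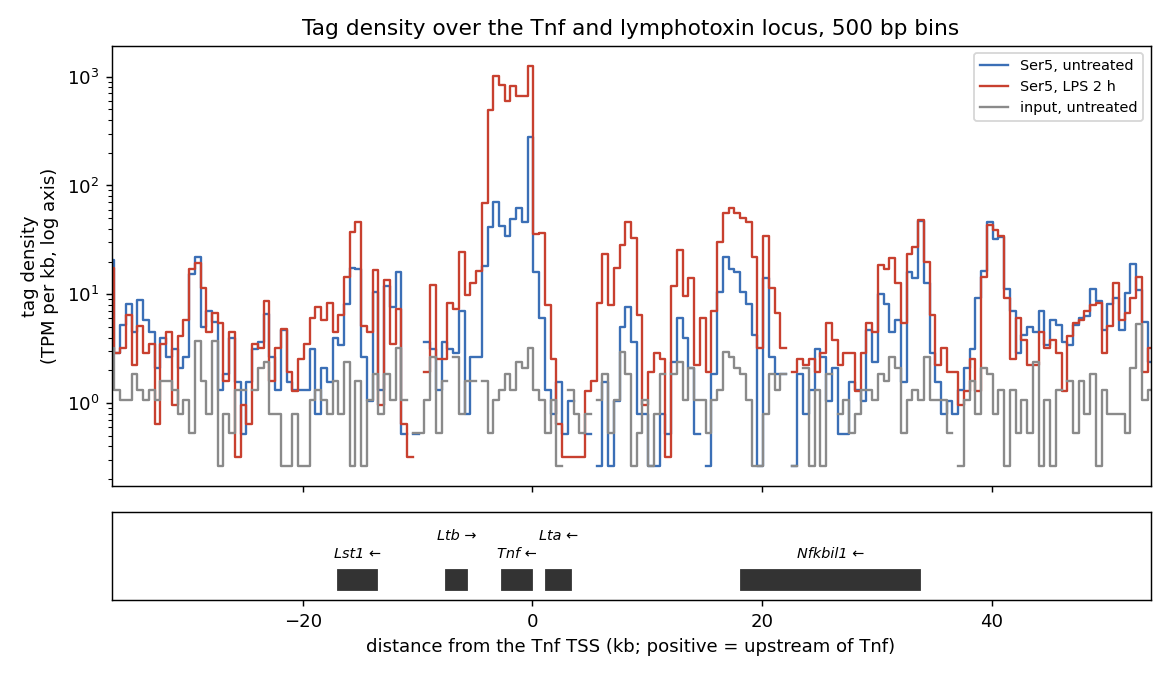
Tag density (TPM per kb, log axis) in bins of 500 bp over the locus and 20 kb to each side, against the distance from the Tnf TSS in kb, with the untreated Ser5, LPS Ser5 and input libraries as lines. Bins without a tag are not drawn, boxes below mark the 5 genes and arrows their strand. The LPS line stands highest from the Tnf TSS to beyond its 3′ end, reaching 1016 TPM per kb in the densest bin of the space between Tnf and Ltb, and a separate group of bins is raised upstream of Lta.

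The difference was not even along the gene. Within 250 bp of the Tnf TSS the untreated library held 1013 tags and the LPS library 2735, a ratio of 3.29 (3.06 to 3.54). From there to the 3′ end the counts were 887 and 10653, a ratio of 14.6 (13.7 to 15.7). These 2 ratio intervals do not overlap. In untreated cells the density around the TSS was therefore 5.42 times that of the rest of the gene (4.94 to 5.93), and after LPS it was 1.22 times (1.17 to 1.27), close to the 1.25 times of input (0.555 to 2.55). Introns and exons shared the difference, with a ratio of 12.6 (11.4 to 14.0) over the 988 bp of introns and 8.58 (8.08 to 9.11) over the 1639 bp of exons, the first of which lies at the TSS.

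The signal continued past the annotated 3′ end of Tnf. In the 1 kb beyond it there were 421 untreated and 5505 LPS tags, a ratio of 15.9 (14.4 to 17.6), close to that of the 1314 bp of the gene nearest its 3′ end, where 428 tags stood against 5816 and the ratio was 16.6 (15.01 to 18.3). In bins of 100 bp the LPS library showed several elevations. The first reached 1044 tags at 100 to 199 bp downstream of the TSS, the next 581 tags at 1600 to 1699 bp in the gene, and another 954 tags at 2900 to 2999 bp, beyond the annotated 3′ end. A dip to 105 tags at 3400 to 3499 bp was followed by a further elevation of up to 420 tags per bin, and from 4100 bp on the next 3 bins held at most 9 tags each. In the bin of the dip, 21% of the 30-base sequences are repeated in the genome, where an LPS tag, which has that length, cannot be placed uniquely. The bin before it, from 3300 to 3399 bp, had 213 LPS tags and 0% repeated. In the bins from 4000 and 4100 bp, 27% and 36% were repeated. The part of repeats in these counts was not tested. The untreated library showed elevations at similar places past the 3′ end, at a lower level, with 86 tags in the bin from 3000 to 3099 bp.

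**Figure D2:**
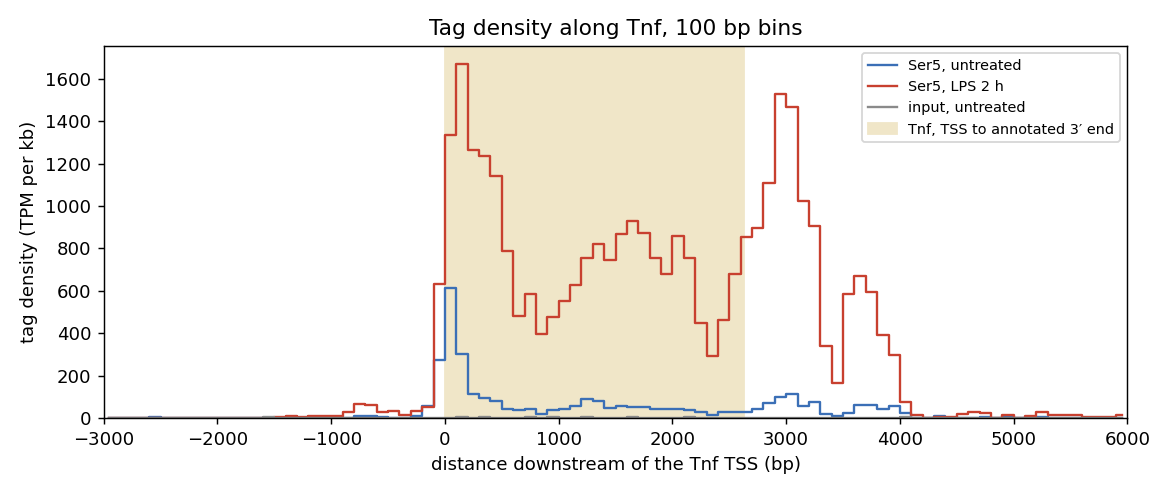
Tag density (TPM per kb) in bins of 100 bp around the Tnf TSS, against the distance downstream of it in bp, for untreated Ser5, LPS Ser5 and input, with the annotated gene shaded. Untreated Ser5 is concentrated in the bins next to the TSS, with 469 tags in the first 100 bp of the gene. After LPS the density is high over the whole gene and beyond it up to 4000 bp. Past the 3′ end it dips to 168 TPM per kb at 3400 to 3499 bp.

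The space Ltb-Tnf as a whole held 636 tags in untreated cells, 6801 after LPS and 23 in input, or 27.3 TPM per kb (25.2 to 29.5), 356 TPM per kb (347 to 364) and 0.998 TPM per kb (0.632 to 1.497). Its ratio of 13.0 (12.0 to 14.2) was above that of the Tnf body. Among 9077 spaces of 1 to 20 kb between annotated genes it ranked 39 by density in untreated cells and 1 after LPS. With 1 tag per position the ratio was 5.46 (4.95 to 6.03), and without the outer 1 kb at each end of the space it was 7.56 (6.50 to 8.84). The 1 kb on the Tnf side had the ratio of 15.9 given above, and the 1 kb on the Ltb side held 19 and 80 tags, a ratio of 5.13 (3.08 to 8.96). Of the 30-base sequences that start in this space, 13.4% occur again in the genome, where a tag of that length cannot be placed uniquely.

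On the other side of Tnf the difference was smaller. The space Tnf-Lta held 291, 612 and 10 tags in the untreated, LPS and input libraries, a ratio of LPS to untreated of 2.56 (2.23 to 2.96). Most of its tags lay next to the Tnf TSS, with 209 and 395 tags in the 100 bp directly upstream. A small elevation stood apart from them, with 42 tags after LPS and 7 in untreated cells in the bin from -800 to -701 bp relative to the TSS. The deposited peak over Tnf was 4489 bp long in the untreated list (chr17:35334788-35339276) and 5763 bp in the LPS list (chr17:35334759-35340521). Its end past the Tnf 3′ end was nearly the same in both lists, 1538 and 1567 bp beyond the gene, but upstream of the TSS the untreated peak reached 324 bp and the LPS peak 1569 bp, where it entered the last 412 bp of Lta. A further untreated peak of 433 bp, chr17:35339339-35339771, followed closely upstream, with 23 untreated and 128 LPS tags, and lay within the LPS peak. The untreated and the LPS peak over Tnf both had the score 3100, which 749 untreated and 737 LPS peaks share, so the score does not rank them.

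Lta, which encodes a soluble relative of TNF, is the direct neighbour of Tnf and had the lowest Ser5 density of the 5 genes. Its body held 16 tags in untreated cells, 35 after LPS and 10 in input, or 0.961 TPM per kb (0.549 to 1.56), 2.56 TPM per kb (1.78 to 3.56) and 0.607 TPM per kb (0.291 to 1.12). Untreated Ser5 was 1.58 times input (0.675 to 3.90) and LPS Ser5 4.22 times (2.04 to 9.55). The ratio of LPS to untreated of 2.67 (1.44 to 5.16) met the rule of size, but 32 of the 35 tags after LPS lay in the 1094 bp nearest the 3′ end, which faces Tnf, and 3 in the 1093 bp nearest the TSS. In untreated cells these stretches held 9 and 7 tags. Within 1 kb of the Lta TSS there were 10 tags in untreated cells, 3 after LPS and 9 in input, and the ratio of 0.366 (0.0647 to 1.42) has an interval that spans 1. No untreated peak touched Lta, and the only LPS peak that did was the one over Tnf. At this depth no Ser5 Pol_II above input was detectable at the start of Lta in either condition.

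Ltb encodes the membrane anchor of the lymphotoxin heterotrimer. By body density it ranked 2328 of the 17386 genes in untreated cells and 559 after LPS, but 357 in input. Its body held 57 tags in untreated cells, 139 after LPS and 18 in input, or 3.98 TPM per kb (3.01 to 5.15), 11.8 TPM per kb (9.93 to 14.0) and 1.27 TPM per kb (0.752 to 2.01). The ratio was 2.97 (2.17 to 4.12). After LPS the tags lay away from the start, with 15 untreated and 8 LPS tags within 250 bp of the TSS, a ratio of 0.650 (0.239 to 1.63), against 29 and 98 in the 941 bp nearest the 3′ end, a ratio of 4.12 (2.70 to 6.47). The density around the TSS was 1.02 times that of the rest of the gene in untreated cells (0.529 to 1.85) and 0.194 times after LPS (0.0822 to 0.394). The untreated library had 2 short peaks touching Ltb, the longer of 434 bp, and the LPS library 1 peak of 2350 bp that began inside the gene and ran 553 bp past its 3′ end.

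Lta and Ltb are lymphocyte genes, so lymphocyte markers were counted beside them. Of 6 T and NK cell markers 2, Cd3d and Lck, had a Ser5 density at least 2 times input in each condition, and the summed density of the 6 was 5.32 TPM per kb in untreated cells, 4.48 after LPS and 3.47 in input. The B cell markers Cd79a, Ms4a1 and Pax5 stood at 1.68, 0.112 and 0.390 times input in untreated cells and at 1.63, 0.356 and 0.297 times after LPS. The markers Cd3e, Cd3g, Ncr1 and Cd2 stood at 3 to 12 tags per Ser5 library, all below their input density, and none was at 0 tags. Of 4 neutrophil markers 1 reached 2 times input in untreated cells and 2 after LPS, and of 3 fibroblast markers none did. The part of other cells in the Lta and Ltb counts was not tested.

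Lst1 and Nfkbil1, at the ends of the locus, were occupied in untreated cells and more densely after LPS. Lst1 held 215 tags in untreated cells, 387 after LPS and 30 in input, or 8.44 TPM per kb (7.35 to 9.65), 18.5 TPM per kb (16.7 to 20.5) and 1.19 TPM per kb (0.803 to 1.70), with a ratio of 2.19 (1.85 to 2.60). Along this gene the difference was even, with a ratio of 2.28 (1.77 to 2.96) in the 1672 bp nearest the TSS and 2.13 (1.69 to 2.68) in the 1673 bp nearest the 3′ end. Within 1 kb of its TSS the ratio was 1.77 (1.32 to 2.39), from 79 and 115 tags. Its longest peak lay inside the gene, covering 1231 bp after LPS (chr17:35322817-35324047) with 159 untreated and 289 LPS tags.

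Nfkbil1 held 539 tags in untreated cells, 1136 after LPS and 125 in input, or 4.53 TPM per kb (4.16 to 4.93), 11.6 TPM per kb (10.97 to 12.3) and 1.06 TPM per kb (0.884 to 1.27), with a ratio of 2.57 (2.32 to 2.85). Around its TSS the difference was small, with 348 and 373 tags within 1 kb, a ratio of 1.31 (1.13 to 1.52), and 174 and 150 tags within 250 bp, a ratio of 1.05 (0.839 to 1.31). The difference lay toward the 3′ end, which faces Lta and Tnf. The last 659 bp, before Gm16181 begins, held 58 and 223 tags, a ratio of 4.69 (3.50 to 6.37). They lie directly upstream of the Gm16181 TSS, where the ratio within 1 kb to each side was 4.61. Tags of this stretch therefore cannot be given to either gene. The 3301 bp shared with Gm16181 held 104 and 317 tags, a ratio of 3.71 (2.97 to 4.68). The 9525 bp of Nfkbil1 between Gm16181 and Atp6v1g2 held 184 and 331 tags, a ratio of 2.19 (1.83 to 2.64). The 2133 bp shared with Atp6v1g2 at the 5′ end held 193 and 265 tags, a ratio of 1.67 (1.38 to 2.02). Ordered from the 3′ to the 5′ end the 4 ratios thus decreased, and the intervals of the first and second overlap, as do those of the last pair.

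By density of the body the order of the 5 genes in untreated cells was Tnf, Lst1, Nfkbil1, Ltb and Lta, and the intervals of Nfkbil1 and Ltb overlap. After LPS the order was Tnf, Lst1, Ltb, Nfkbil1 and Lta, again with overlapping intervals for Ltb and Nfkbil1, while the intervals of all other neighbours in the order were apart. All 5 bodies met the rule of size upward, whereas 5.83% of the 17386 genes tested were called higher and 11.3% lower, and the median ratio over all of them was 0.874. Around the TSS Tnf alone of the 5 met it upward, with 1352 and 6465 tags within 1 kb and a ratio of 5.83 (5.50 to 6.18), which with 1 tag per position was 3.45 (3.17 to 3.77). Over 12535 genes tested around the TSS, 5.58% were called higher and 14.1% lower, with a median ratio of 0.831. Lta met the rule downward around its TSS, but from 13 tags in all and with an interval that spans 1, and with 500 bp to each side its ratio was 0.914 (0.134 to 5.40), which no longer met the rule.

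**Figure D3:**
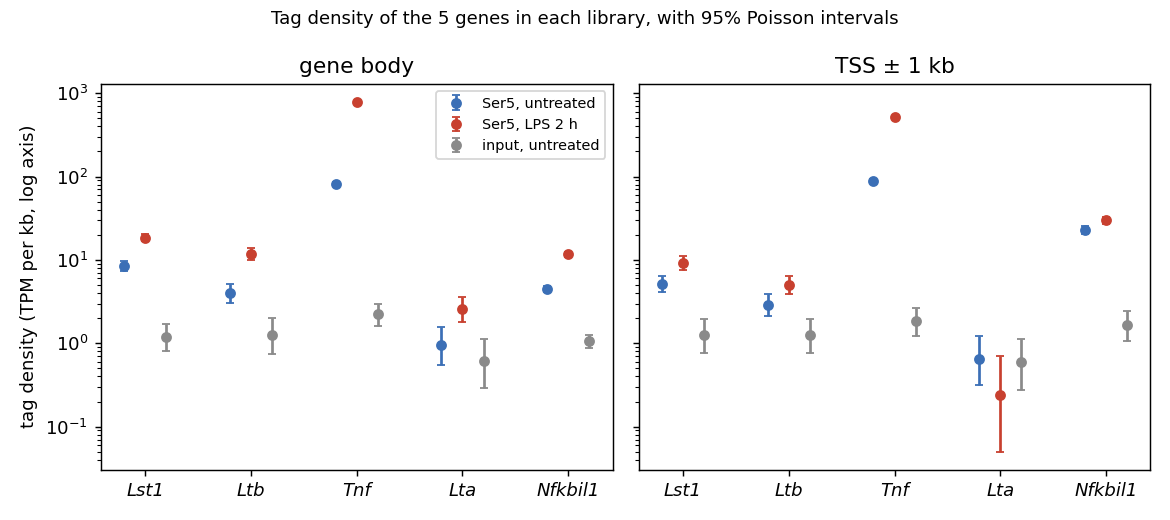
Tag density (TPM per kb, log axis) of the gene body and of the 1 kb to each side of the TSS for the 5 genes in chromosomal order, with points for the 3 libraries and bars for 95% Poisson intervals, which cover counting error only. All 5 bodies are higher after LPS, from 2.56 TPM per kb for Lta to 788 for Tnf, whereas at the TSS of Lta the Ser5 intervals overlap that of input.

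**Figure D4:**
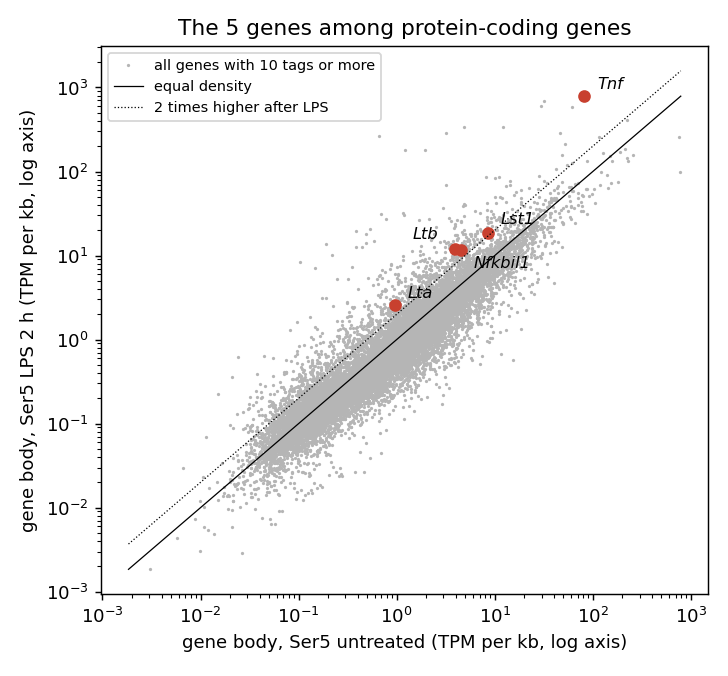
Gene body density after LPS against that in untreated cells (TPM per kb, log axes) for the protein-coding genes that hold at least 10 Ser5 tags in all and a tag in each Ser5 library, as grey points, with the 5 genes in red. The solid line marks equal densities and the dotted line a density 2 times higher after LPS. Tnf lies at the top of the plot, at 788 TPM per kb, and the other 4 lie just above the dotted line.

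Ser5 Pol_II was also found in the 14823 bp space between Lta and Nfkbil1, which holds no annotated gene. It held 411 tags in untreated cells, 1472 after LPS and 141 in input, a ratio of LPS to untreated of 4.36 (3.91 to 4.88). After LPS its density of 15.9 TPM per kb (15.1 to 16.7) was above that of the Nfkbil1 body and 12.6 times input (10.6 to 15.1). With Ltb-Tnf and Tnf-Lta it makes 3 of the 4 spaces that met the rule of size, against 7.06% of the 9077 spaces tested, whose median ratio was 0.812. The 1656 bp just upstream of Lta held 6, 6 and 8 tags in the untreated, LPS and input libraries.

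Distances upstream of Tnf are counted from its TSS. From 5 to 10 kb upstream the space held 79 untreated and 540 LPS tags, a ratio of 8.33 (6.57 to 10.7). From 10 to 15 kb it held 65 and 242 tags, a ratio of 4.54 (3.44 to 6.06), and from 15 kb to the 3′ end of Nfkbil1 261 and 684 tags, a ratio of 3.19 (2.77 to 3.70). Before stimulation the stretch from 5 to 10 kb stood at 1.82 times input (1.24 to 2.70) and that from 10 to 15 kb at 1.34 times (0.908 to 1.99), and after LPS at 15.1 (11.1 to 21.2) and 6.08 times (4.44 to 8.47). Only the stretch next to Nfkbil1 was well above input in untreated cells, at 6.15 times (4.42 to 8.73).

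The deposited peak lists divide this space further. There were 6 LPS peaks in it, of which 4 overlapped no untreated peak. At 5.81 kb upstream of Tnf (midpoint), chr17:35344532-35344995, the LPS library held 26 tags and the untreated library 1, a ratio of 31.7 with an interval from 5.21 to 1299. At 6.50 kb, chr17:35345037-35345863, the counts were 96 and 7, a ratio of 16.7 (7.81 to 42.7). The peak at 8.21 kb, chr17:35345985-35348346, held the most LPS tags of those lying wholly inside the space, 409 against 68, a ratio of 7.33 (5.66 to 9.62), and a short untreated peak of 435 bp lay inside it. A peak of 2082 bp at 13.1 kb held 192 and 55 tags, a ratio of 4.25 (3.14 to 5.85), and 1 at 14.7 kb, chr17:35353436-35353919, held 21 and 1. The sixth peak, of 4160 bp, reached from the space into the 3′ end of Nfkbil1 and over the Gm16181 TSS, with 1040 and 344 tags. Over the whole locus there were 19 untreated peaks covering 33.2% of it and 25 LPS peaks covering 59.1%. Of the LPS peaks 10 overlapped no untreated peak, beside a share of 43.4% of all 49371 LPS peaks, whereas 0 of the 19 untreated peaks lacked an LPS peak, beside 45.7% of all 53467.

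As 1 example, the 300 bp with the most LPS tags in the peak at 8.21 kb are given on the plus strand of mm9. Motif matches are in capitals as above. This window was picked after its values were seen, and its matches do not stand for the other peaks of the space.
Window in the peak at 8.21 kb, chr17:35347175-35347474: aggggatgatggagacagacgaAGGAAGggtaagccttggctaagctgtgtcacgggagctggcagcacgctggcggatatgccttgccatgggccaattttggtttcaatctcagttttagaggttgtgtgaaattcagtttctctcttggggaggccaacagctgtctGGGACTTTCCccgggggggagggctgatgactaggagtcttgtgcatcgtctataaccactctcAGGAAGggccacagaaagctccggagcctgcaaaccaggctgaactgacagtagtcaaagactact
This window held 109 tags after LPS, 24 in untreated cells and 2 in input, and it contains 1 NF-kB match and 2 ETS cores. Of the 300 bp around the midpoints of 49368 LPS peaks, 7.90% held the NF-kB consensus and 38.7% the ETS core. Of the 30-base sequences that start in the space 11.7% are repeated elsewhere.

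The space between Lst1 and Ltb behaved differently. It held 196 tags in untreated cells, 160 after LPS and 54 in input, a ratio of 0.995 (0.802 to 1.23), and without the outer 1 kb at each end, which adjoin the genes, the ratio was 0.740 (0.558 to 0.976). It nevertheless held Ser5 Pol_II in both conditions, at 3.59 (2.64 to 4.95) and 3.57 times input (2.61 to 4.96). Among its peaks 1 of 431 bp in the untreated library, chr17:35327053-35327483, held 61 untreated and 22 LPS tags, a ratio of 0.440 (0.257 to 0.726). Of the 30-base sequences that start here 19.3% are repeated, the highest share of the 4 spaces. LPS tags have 30 bases and untreated tags 45, so repeats can take tags from the 2 libraries unequally. Their part in this ratio was not tested.

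**Figure D5:**
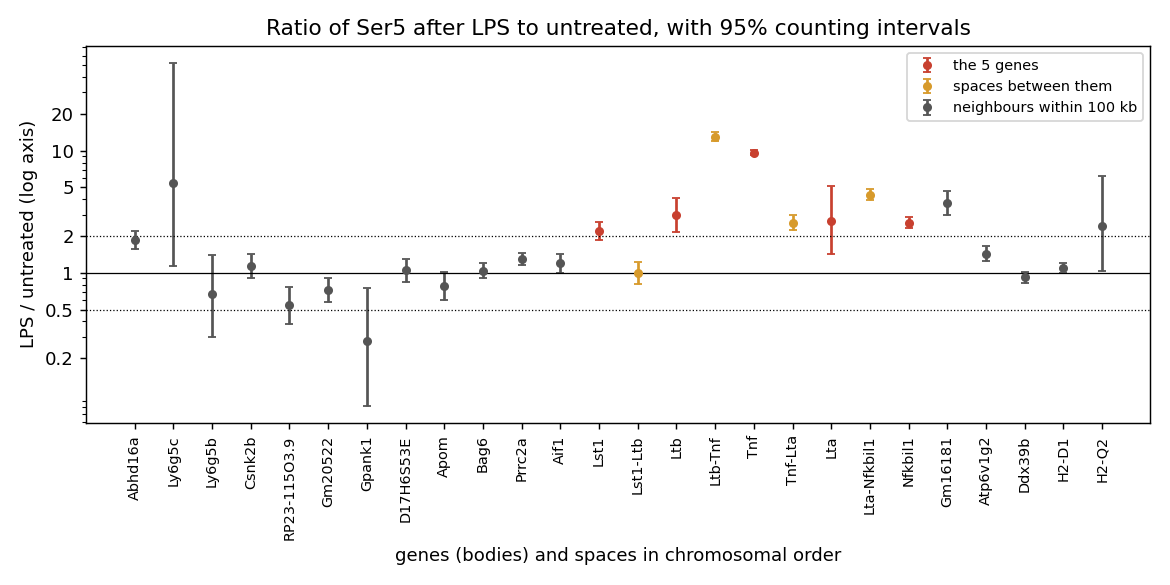
Ratio of the LPS to the untreated Ser5 density (log axis) for the 5 gene bodies, the 4 spaces between them and the 17 neighbouring genes with enough tags, in chromosomal order, with bars for 95% counting intervals. The solid line marks a ratio of 1 and the dotted lines the rule of size. The points rise above 2 from Lst1 to Gm16181, except in the Lst1-Ltb space at 0.995, with the highest at 13.0 in the Ltb-Tnf space.

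Most genes around the locus differed little over their bodies, on which the calls of this paragraph rest. Of the 18 other protein-coding genes within 100 kb, 13 did not meet the rule of size, 3 were called higher, 1 lower and 1 had too few tags, and the median ratio of the other 17 was 1.09. Aif1, a macrophage gene below Lst1, had a ratio of 1.1996 (1.004 to 1.43), and Prrc2a next to it 1.29 (1.16 to 1.44). On the far side, beyond Nfkbil1, Ddx39b had a ratio of 0.921 (0.832 to 1.02) and the class I histocompatibility gene H2-D1 1.09 (0.991 to 1.21). The 3 genes called higher were Gm16181, which lies inside Nfkbil1, and Ly6g5c and H2-Q2, which rested on few tags, 2 and 9 for Ly6g5c, below input in both libraries, and 9 and 18 for H2-Q2, at 1.14 times input after LPS. Gpank1 was called lower, with 22 and 5 tags. Within 1 kb of the TSS the ratio was 4.61 for Gm16181, 2.87 for Atp6v1g2 and 2.09 for H2-Q2. It was below 2 for the others where a ratio could be formed.

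The genes through which TNF and the lymphotoxins act differed among themselves. Of 19 listed genes, 6 were called higher, 2 lower and 11 neither, with a median ratio of 1.33. Among the receptors, Tnfrsf1b, which encodes the TNF receptor of leukocytes, held 1619 untreated and 7118 LPS tags, a ratio of 5.36 (5.08 to 5.66), whereas the widely expressed receptor gene Tnfrsf1a had a ratio of 1.23 (1.09 to 1.38) and Ltbr, the lymphotoxin beta receptor gene, 0.844 (0.690 to 1.03). Tnfrsf14, the receptor gene for the lymphotoxin relative LIGHT, had a ratio of 3.39 (2.74 to 4.22). For the shedding of TNF from the membrane, the protease gene Adam17 had a ratio of 1.36 (1.24 to 1.498), Rhbdf2, whose product brings this protease to the surface, 2.79 (2.59 to 2.995), and Timp3, which encodes an inhibitor of it, stood below input in both libraries, as did Tnfsf14, the gene of LIGHT itself.

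Among the signal transducers, Traf1 held 388 and 2704 tags, a ratio of 8.49 (7.63 to 9.47), and Birc3, an inhibitor of apoptosis that ubiquitinates Ripk1, 596 and 2154 tags, a ratio of 4.405 (4.02 to 4.83). Birc2, its neighbour and relative, had a ratio of 2.94 (2.10 to 4.16) at low density, 1.16 TPM per kb after LPS. It stood below input in untreated cells, at 0.515 times (0.360 to 0.729), and at 1.51 times input after LPS (1.15 to 1.99). The genes called lower were Fadd, an adaptor of the death-inducing branch, at 0.391 (0.314 to 0.485), and Map3k14, the kinase of the noncanonical NF-kB pathway downstream of Ltbr, at 0.473 (0.420 to 0.532). Tradd, Traf2, Traf3, Ripk1, Casp8 and Map3k7 met the rule in neither direction, with ratios from 0.624 to 1.74. Against the shares of all genes given above, 6 of 19 is a larger share higher and 2 of 19 about the same share lower, and the list was not tested.

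The 5 genes most like Tnf in their Ser5 pattern were found by the distance over 4 values on the log2 scale, the densities of the body and of the TSS in both Ser5 libraries, among 20460 genes of at least 1 kb. They were Ccl3 and Ccl4, which encode inflammatory chemokines, Nfkbia, the gene of the NF-kB inhibitor IkBα, Irg1, which encodes the enzyme that makes itaconate, and Fth1, the ferritin heavy chain gene. Ccl3 was nearest, at a distance of 1.21, with body densities of 60.7 TPM per kb in untreated cells and 587 after LPS. Nfkbia, at a distance of 1.92, had 46.2 and 285 TPM per kb, and Irg1, at 2.04, had 29.4 and 600 TPM per kb. Fth1, at 2.18, differed from Tnf in its untreated density, 223 TPM per kb, and reached 416 TPM per kb after LPS. The likeness is a description over 2 libraries.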

How the data were processed

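The authors immunoprecipitated Ser5-phosphorylated Pol_II with the antibody ab5131, trimmed the reads, aligned them to mm9 with Bowtie (unique matches only) and called peaks per library against input with MACS at a threshold on the p-value. They deposited the aligned tags, given as positions and strands with duplicates kept, and peak lists whose score is -10*log10 of the MACS p-value, per the file headers and the methods. The methods state 30 bases for untreated and 45 for LPS tags, whereas the files hold 45 and 30, and the sample labels were kept. The direction of every ratio rests on these labels: if the 2 Ser5 libraries were exchanged, each ratio would turn. The library labelled LPS had the higher Ser5 density at Tnf and at Ccl3, Ccl4 and Nfkbia. The last named were picked for their likeness to Tnf in these same libraries, so this is no independent check. The labels were not tested. The methods name LPS with γIFN for the total Pol_II libraries, and the labels of the Ser5 library name LPS alone.

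Tags on chromosomes 1 to 19 and X were counted by their 5′ end in regions of GENCODE M1, which uses the mm9 assembly. Each gene runs from its outermost annotated start to its outermost end, and the TSS is the outermost start. Of 7624549, 6259018 and 7547185 deposited tags, 7616771, 6249819 and 7533308 were used, and 49.8%, 53.3% and 4.54% of these lay in peaks of either Ser5 library. With 1 library per condition no test was made. Where a region held 0 tags, 0.5 was used for the rule of size. Intervals and floors (3 tags for a count of 0) cover counting error only, and PCR duplicates are not independent molecules. A peak was shared where at least 1 bp overlapped. These mice differ from the mm9 reference at some bases, and the tags lost to such differences were not measured.

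The named genes are the 5 members, all coding genes within 100 kb, a list of 19 genes of the TNF and lymphotoxin pathway, marker lists and the 5 genes most like Tnf. Members, lists and alternatives were chosen with earlier results of these data known. The peak of which 300 bp are printed, and the extra peaks and bins that are named, were picked after their values were seen. Some items are not reported here. The alternatives were a shift of each tag by 75 bp downstream, 1 tag per position and strand, scaling to tags outside peaks, the longest coding transcript, the TSS with 500 bp to each side, no minimum of tags, peaks with p of at most 1e-10, and peaks assigned by midpoint. The functions for counts and intervals were checked on simulated data. Python 3.11.15, numpy 2.4.6, pandas 2.3.3, scipy 1.17.1, numba 0.67.0 and matplotlib 3.10.9 were used.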

Additional observations from a re-analysis of the deposited data

How the results depend on the processing

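Of 56 alternative ratios of LPS to untreated over the 14 bodies, starts and spaces, 55 kept their direction, the other being the Lst1-Ltb space, which was 1.07 times when scaled to tags outside peaks. Not all of them could have turned. The longest coding transcript gave the same ratio as before for Tnf, Lta, Lst1 and Nfkbil1. Scaling to tags outside peaks multiplies every ratio by the same factor, so only a ratio just below 1 can turn. With 1 tag per position and strand the ratios at Tnf were 5.25 for the body and 3.45 for the TSS, that of the Ltb-Tnf space was 5.46, and untreated Tnf stood at 25.6 times input. Scaled to tags outside peaks, the Tnf ratios were 10.4 and 6.27. Untreated Ser5 over input was then 70.1 for Tnf, 5.96 for Ltb, 13.5 for Lst1 and 8.11 for Nfkbil1. For the Lta body it was 3.01 (1.28 to 7.42) in place of 1.58 (0.675 to 3.90), so its interval no longer spanned 1. With 500 bp to each side of the TSS the ratio was 4.78 for Tnf, 1.07 for Nfkbil1 and 0.914 for Lta, whose downward call was then lost. Chosen after seeing the data, the Nfkbil1 body without the stretches that other genes cover stood at 3.03 times input in untreated cells, and without the outer 1 kb at each end the Lst1-Ltb and Ltb-Tnf ratios were 0.740 and 7.56. With no minimum of tags, 1767 gene bodies were called higher in place of 1014, 2979 starts higher in place of 700 and 3683 starts lower in place of 1771. Scaling to tags outside peaks raises every ratio of untreated Ser5 to input by the same factor. This is because 49.8% of untreated Ser5 tags but 4.54% of input tags lay in peaks, so the change at Lta is not particular to it. Removing duplicates caps a region at 1 tag per position, and dropping the minimum admits genes with few tags. Other causes of these changes were not tested. No replicate could be left out, since each condition had 1 library. No paired analysis was possible because there are no replicates.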
